A study of Mus musculus with 6 samples.

Results

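Transcripts of the circadian clock were measured in suprabasal cells of the embryonic mouse epidermis. The genes were the 10 core clock genes Per1, Per2, Per3, Cry1, Cry2, Arntl (also called Bmal1), Clock, Nr1d1, Nr1d2 and Dbp, out of 35275 genes in the table. They were listed by name, with earlier results of these data known. Each matched a single Ensembl identifier. The K10-spastin embryos (K10rtTA;TREspastin) carry the doxycycline-dependent activator rtTA under the keratin 10 promoter, which is active once cells leave the basal layer; rtTA switches on the microtubule-severing enzyme spastin and a histone H2B fused to green fluorescent protein (H2B-GFP). Control embryos are labelled only as control. Their transgenes were not given in the sources used here, although sorting on H2B-GFP was applied to both groups, so the groups are compared as labelled. The 3 K10-spastin and 3 control libraries, of strain CD1 IGS, came from RNA samples that the labels call independent. Dams of both groups received doxycycline chow from E14.5 (days of gestation), back skin was taken at E16.5, the epidermis was separated with dispase, and cells positive for H2B-GFP were sorted. Neither the number of embryos behind a library nor the hour of collection was stated in the labels, so p-values measure only the spread between these samples, and a difference in hour cannot be told apart from the groups.

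The mammalian clock is a set of feedback loops of transcription. CLOCK and BMAL1 bind E-boxes in DNA and switch on the Per and Cry genes, whose proteins return to the nucleus and repress CLOCK and BMAL1. A further loop runs through Nr1d1 and Nr1d2, which encode the nuclear receptors REV-ERB alpha and REV-ERB beta that repress Arntl, against the ROR receptors, which activate it. Dbp, with its relatives Tef and Hlf, encodes a transcription factor that acts through D-boxes and carries the rhythm to output genes. Per1 and Per2 can also be switched on outside the loop, by glucocorticoids and by signals that induce immediate-early genes. In skin, the clock of keratinocytes is known for setting the daily timing of DNA synthesis and of stress responses.

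Promoter sequences show which of these elements lie just before the start sites of the genes described below. RefSeq (build GRCm38.p6) gave the 250 bases before the start site for 9 of the 10 genes. E-boxes (CACGTG), the variant E-prime-box (CACGTT), D-boxes (TTATGTAA or TTACGTAA), ROR elements (TAGGTCA or TGGGTCA), cAMP response elements (TGACGTCA) and glucocorticoid response elements (2 inverted copies of AGAACA that are 3 bases apart) were searched on both strands. In the clock genes no match overlapped another. An E-box was found in 2 clock genes, Per1 and Cry1, and in 6.86% of 27025 genes with such a window. An E-prime-box was found in 3, Cry1, Cry2 and Nr1d1, against 4.50% of genes, and a D-box in Per3 alone of the 9, against 1.10% of genes. No ROR, cAMP or glucocorticoid element was found in the 9, against 6.15%, 1.77% and 0.0111% of genes, which says only that these letters are not in these windows. The windows of Per1 (chr11:69098699-69098948, plus strand, the first of 2 start sites), Per3 (chr4:151044666-151044915, minus strand), Cry1 (chr10:85185055-85185304, minus strand) and Tef (chr15:81802423-81802672, plus strand, the first of 2 start sites) are shown 5′ to 3′, because they hold the E-boxes and D-boxes of genes that fell and of genes that did not pass the test. Capitals mark the matches: the E-box in Per1 and Tef, a pair of D-boxes in Per3, and in Cry1 an E-prime-box, read on the opposite strand as AACGTG, followed by an E-box.
Per1: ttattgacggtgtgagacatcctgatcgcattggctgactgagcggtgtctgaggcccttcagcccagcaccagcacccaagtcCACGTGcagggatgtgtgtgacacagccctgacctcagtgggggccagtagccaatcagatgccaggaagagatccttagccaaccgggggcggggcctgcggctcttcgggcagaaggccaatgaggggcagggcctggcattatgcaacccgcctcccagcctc
Per3: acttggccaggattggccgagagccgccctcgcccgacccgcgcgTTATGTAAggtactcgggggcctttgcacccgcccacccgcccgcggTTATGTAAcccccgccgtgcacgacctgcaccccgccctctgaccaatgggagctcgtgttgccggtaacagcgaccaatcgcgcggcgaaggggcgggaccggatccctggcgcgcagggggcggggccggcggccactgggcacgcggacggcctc
Cry1: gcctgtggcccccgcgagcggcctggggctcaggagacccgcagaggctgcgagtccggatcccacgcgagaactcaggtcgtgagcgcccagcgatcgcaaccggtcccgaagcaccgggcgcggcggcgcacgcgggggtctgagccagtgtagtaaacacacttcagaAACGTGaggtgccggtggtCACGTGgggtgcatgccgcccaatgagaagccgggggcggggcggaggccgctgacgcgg
Tef: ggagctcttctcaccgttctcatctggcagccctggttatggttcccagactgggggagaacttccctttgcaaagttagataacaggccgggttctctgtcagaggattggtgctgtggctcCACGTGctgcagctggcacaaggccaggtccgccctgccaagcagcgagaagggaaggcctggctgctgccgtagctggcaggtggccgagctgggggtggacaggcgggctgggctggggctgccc

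The values are FPKM, fragment numbers divided by gene length and by library depth, as the authors deposited them. Spast, the induced gene, stood at 1431, 639 and 213 FPKM in K10-spastin 1 to 3, against 21.2, 24.0 and 21.4 FPKM in controls 1 to 3, as the labels say. Steps in the low values gave depths of 16.01 to 22.5 M (mega) fragments per library. Markers of the suprabasal layer were abundant in all 6 libraries, with 31269 to 46232 FPKM over 6 spinous markers in K10-spastin and 51688 to 67976 FPKM in controls, among which Krt10 had the highest mean over the 6 libraries. Granular markers summed to 3357 to 14955 FPKM in K10-spastin and 1369 to 5412 FPKM in controls, and basal markers to 2495 to 4723 FPKM and 4083 to 7171 FPKM. Of 5 granular markers tested, 2 rose, the envelope gene Ivl at 237 ± 151 FPKM in K10-spastin and 38.9 ± 22.7 FPKM in control, and Cdsn at 82.2 ± 52.0 FPKM and 8.96 ± 7.33 FPKM (SD, n = 3 each; limma adjusted p = 0.0321 and 0.0243). Of 6 basal markers Krt15 alone was called, lower at 260.2 ± 189.7 FPKM in K10-spastin and 1723 ± 439.7 FPKM in control, and of 6 spinous markers Krt10 alone, lower at 15789.9 ± 2358 FPKM and 27671 ± 4471 FPKM (SD, n = 3 each; limma adjusted p = 0.0269 and 0.0438). By the same test, described below, 5.14% of all genes tested were called higher and 5.90% lower. The part of the granular, basal and spinous markers in the clock results was not tested. Endothelial markers were at or below 0.334 FPKM in sum in every library. The T-cell marker Cd3e and the Langerhans cell marker Cd207 were listed at 0 in all 6, and the leukocyte sum of 12.8 to 39.4 FPKM in K10-spastin and 4.95 to 10.8 FPKM in controls was mostly Cd68, a lysosomal gene.

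Of the 10 clock genes, Per1, Per2 and Dbp fell in K10-spastin cells and the other 7 did not pass the test. Per1 stood 2.44-fold, Per2 3.79-fold and Dbp 3.50-fold lower by the ratio of group means. Calls are from limma across the 11071 genes whose mean over the 6 libraries reached 1 FPKM, on log2(FPKM + 1), at a Benjamini-Hochberg adjusted p under 0.05 (two-sided). All 10 clock genes had such a mean and were tested. Among all genes tested, 5.90% were called lower, 5.14% higher and 11.0% in either direction. No clock gene was called higher by limma, at an adjusted p or at an unadjusted p under 0.05, and 5 were lower at an unadjusted p under 0.05, which 31.5% of genes tested passed in either direction. The values of the groups did not overlap in 5 clock genes, all lower in K10-spastin, a separation found in that direction in 24.8% of genes tested, in the other in 15.6% and in either in 40.4%. The median log2 change was -0.64 over the 10 genes and -0.09 over all genes tested. Log2 changes of single genes were computed from FPKM + 1, so those of low genes come out too small, and are printed ± standard error. In sorted bulk cells, fewer cells of a type and less RNA per cell cannot be told apart.

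**Figure D1:**
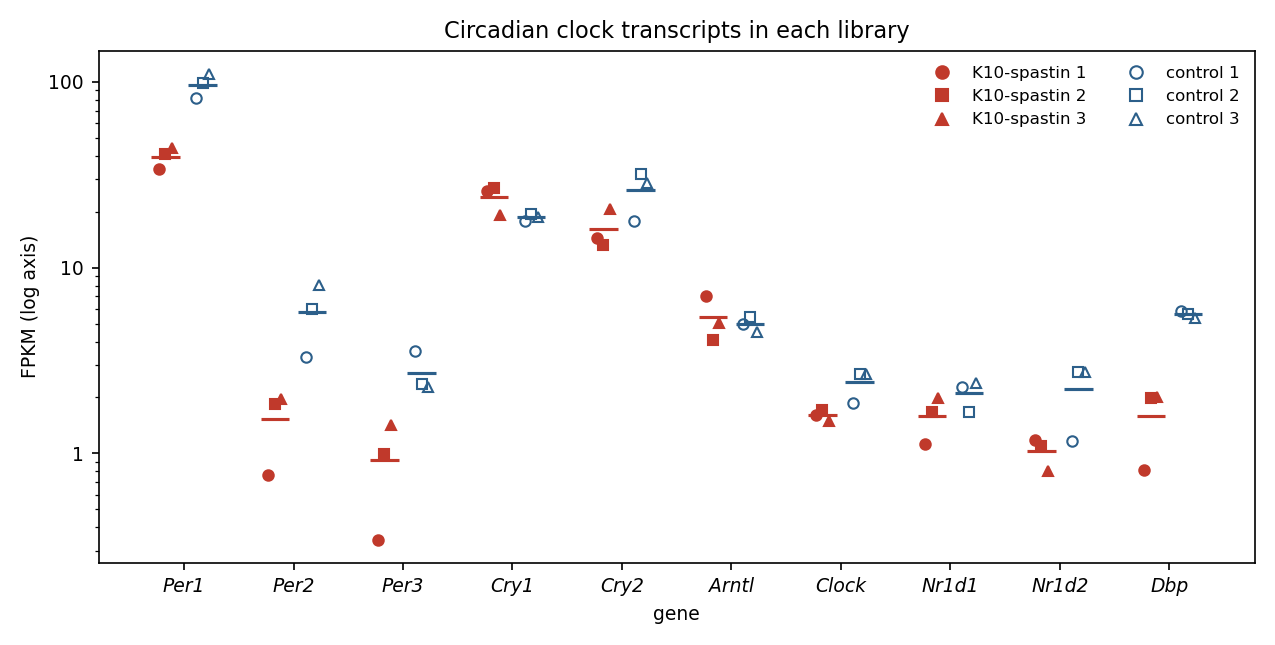
FPKM of the 10 clock genes (log axis) in each of the 3 K10-spastin libraries (filled) and 3 control libraries (open), with bars at the group means. Per1, Per2, Per3, Clock and Dbp show no overlap between the groups, and Cry1, Cry2, Arntl, Nr1d1 and Nr1d2 overlap.

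The period genes encode the PER proteins, which bind the cryptochromes and carry them into the nucleus as repressors. Per1 (ENSMUSG00000020893) had 33.9, 41.0 and 43.9 FPKM in K10-spastin 1 to 3, against 81.8, 98.2 and 110.1 FPKM in controls 1 to 3. Each K10-spastin library lay far below each control. Its log2 change was -1.26 ± 0.16 (limma adjusted p = 0.00865). Per1 was called under each of 17 other settings, with limma adjusted p from 9.58e-04 to 0.0497. The values rest on about 2044 to 6376 fragments per library.

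Per2 (ENSMUSG00000055866) was far less abundant, at 0.761, 1.85 and 1.96 FPKM in K10-spastin 1 to 3, against 3.31, 5.97 and 8.05 FPKM in controls 1 to 3. The groups did not overlap, and K10-spastin 1 and control 1 were the lowest of their groups. Its log2 change was -1.40 ± 0.34 (limma adjusted p = 0.0421), from about 40.1 to 403 fragments per library. Per2 was not called without K10-spastin 1 (limma adjusted p = 0.0681), K10-spastin 2 (0.0723), control 2 (0.140) or control 3 (0.147), nor with no filter on low values (0.0919), over a range of 0.00725 to 0.147.

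Per3 (ENSMUSG00000028957), whose product is the least needed of the PER proteins for rhythm in mice, had 0.344, 0.987 and 1.43 FPKM in K10-spastin 1 to 3, against 3.54, 2.35 and 2.28 FPKM in controls 1 to 3. Again the groups did not overlap, but here control 1 was the highest control. The log2 change of -0.98 ± 0.28 did not pass (limma adjusted p = 0.0616), and passed without K10-spastin 3 (0.0453) and with array weights (0.0430). Per3 was above the mean of 1 FPKM asked for by the test through the controls, since its K10-spastin mean was 0.920 FPKM. Per1 supplied 92.8% to 96.8% of the summed FPKM of the period genes in K10-spastin libraries and 91.4% to 92.3% in controls.

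The cryptochromes encode the partners of PER that do most of the repression of CLOCK and BMAL1. Cry1 (ENSMUSG00000020038) had 25.8, 26.7 and 19.3 FPKM in K10-spastin 1 to 3, against 17.7, 19.5 and 18.6 FPKM in controls 1 to 3. The groups overlapped, since K10-spastin 3 lay among the controls. Its log2 change was 0.33 ± 0.17 (limma adjusted p = 0.215), with a 95% confidence interval of -0.06 to 0.73, so that a fall like that of Per1 lay outside the interval. Cry2 (ENSMUSG00000068742) had 14.4, 13.2 and 20.6 FPKM in K10-spastin 1 to 3, against 17.9, 32.0 and 28.4 FPKM in controls 1 to 3. K10-spastin 3 stood above control 1, and the log2 change of -0.65 ± 0.26 did not pass the test (limma adjusted p = 0.139).

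Neither activator gene passed the test. Arntl (ENSMUSG00000055116), which encodes BMAL1, the partner without which the clock stops in mice, had 7.05, 4.10 and 5.02 FPKM in K10-spastin 1 to 3, against 4.96, 5.42 and 4.51 FPKM in controls 1 to 3. The controls lay inside the range of K10-spastin. Its log2 change was 0.08 ± 0.22 (limma adjusted p = 0.844), with a 95% confidence interval of -0.44 to 0.59, and its sign was negative without K10-spastin 1 (-0.10). Clock (ENSMUSG00000029238), which encodes the DNA-binding partner of BMAL1, had 1.62, 1.71 and 1.49 FPKM in K10-spastin 1 to 3, against 1.87, 2.67 and 2.69 FPKM in controls 1 to 3. The groups did not overlap, by a margin of 1.71 against 1.87 FPKM, and the log2 change of -0.38 ± 0.19 did not pass (limma adjusted p = 0.225).

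The REV-ERB genes were low in both groups. Nr1d1 (ENSMUSG00000020889) had 1.12, 1.66 and 1.97 FPKM in K10-spastin 1 to 3, against 2.29, 1.68 and 2.38 FPKM in controls 1 to 3. The groups overlapped, with a log2 change of -0.27 ± 0.22 (limma adjusted p = 0.422), from about 34.1 to 89.9 fragments per library. Of the exonic bases of Nr1d1, 8.55% are shared with Thra on the opposite strand. Thra, which encodes a thyroid hormone receptor, stood at 11.8, 28.8 and 33.8 FPKM in K10-spastin 1 to 3, against 61.8, 53.7 and 55.6 FPKM in controls 1 to 3. Without knowledge of the strand, reads in the shared bases cannot be assigned to either gene. Nr1d2 (ENSMUSG00000021775) had 1.18, 1.10 and 0.799 FPKM in K10-spastin 1 to 3, against 1.16, 2.74 and 2.74 FPKM in controls 1 to 3. Control 1 lay within the K10-spastin range and the other controls above it. The log2 change of -0.63 ± 0.27 did not pass (limma adjusted p = 0.159), but passed with array weights (0.0158) and with K10-spastin 1 and control 1 both left out (0.0440).

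Dbp (ENSMUSG00000059824), the D-box factor that in liver has one of the steepest daily rhythms of any clock transcript, had 0.810, 1.99 and 2.0002 FPKM in K10-spastin 1 to 3, against 5.81, 5.63 and 5.34 FPKM in controls 1 to 3. The controls lay close together and well above each K10-spastin library. Its log2 change was -1.38 ± 0.24 (limma adjusted p = 0.0182). K10-spastin 1 rested on about 19.1 fragments, the fewest of any clock gene and library. Dbp was not called without control 1 (limma adjusted p = 0.0595), control 2 (0.0775) or control 3 (0.0812), nor with no filter (0.0533), over a range of 0.00230 to 0.0812 across all settings. Of its exonic bases, 18.0% are shared with Sphk2, a sphingosine kinase gene on the opposite strand, which had 23.0, 33.2 and 36.2 FPKM in K10-spastin 1 to 3, against 45.8, 41.7 and 36.6 FPKM in controls 1 to 3. Here too, reads in the shared bases cannot be assigned to either gene without knowledge of the strand. This limit holds for the Dbp call and for the ratios with Dbp below.

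Other genes of the loops were taken as a list of 10, of which 5 were tested. Of these 1 fell, against 5.90% of all genes tested, and none was called higher (none higher at an unadjusted p under 0.05 either). The median log2 change of the 5 was -0.33. Tef, a D-box factor related to Dbp, had 3.45, 4.93 and 9.79 FPKM in K10-spastin 1 to 3, against 22.0, 23.9 and 19.97 FPKM in controls 1 to 3. Each K10-spastin library lay below each control, with a log2 change of -1.80 ± 0.32 (limma adjusted p = 0.0177).

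Tef was not called without control 1 (limma adjusted p = 0.0590), control 2 (0.0755) or control 3 (0.0750), nor without K10-spastin 1 and control 1 together (0.0504), over a range of 0.00442 to 0.0755. Rora, which encodes a ROR receptor, averaged 46.3 ± 17.8 FPKM in K10-spastin and 57.6 ± 19.9 FPKM in control (SD, n = 3 each; limma adjusted p = 0.572). Bhlhe40, a repressor of E-box transcription, averaged 171 ± 79.7 FPKM in K10-spastin and 169 ± 63.0 FPKM in control (SD, n = 3 each; limma adjusted p = 0.995). The remaining list members were chosen for mention after their values were seen. Npas2, a stand-in for Clock, reached at most 0.253 FPKM in any library, and Hlf, the other relative of Dbp, at most 0.298 FPKM. Arntl2 reached at most 0.781 FPKM and Bhlhe41 at most 1.05 FPKM, and Rorb was listed at 0 in all 6 libraries. Nfil3, which competes for D-boxes, had a log2 change of 0.00 ± 0.29, and Ciart, a repressor of CLOCK and BMAL1, one of -0.49 ± 0.23 (limma adjusted p = 0.999 and 0.195).

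Genes that act on clock proteins after translation formed a list of 12, of which 11 were tested. Of these 1 rose, against 5.14% of all genes tested, and none fell (1 lower at an unadjusted p under 0.05). The median log2 change was 0.06. Csnk1e, the casein kinase that marks PER proteins for destruction, had 51.0, 56.6 and 73.0 FPKM in K10-spastin 1 to 3, against 28.8, 32.0 and 36.0 FPKM in controls 1 to 3. Each K10-spastin library lay above each control, with a log2 change of 0.87 ± 0.17 (limma adjusted p = 0.0253). Its close relative Csnk1d averaged 130.5 ± 14.8 FPKM in K10-spastin and 114 ± 19.5 FPKM in control (SD, n = 3 each; limma adjusted p = 0.438). Nono, an RNA-binding partner of PER, averaged 206 ± 46.9 FPKM and 203 ± 16.9 FPKM in K10-spastin and control (SD, n = 3 each; limma adjusted p = 0.997). With single libraries left out, Csnk1e was not called without K10-spastin 2 (limma adjusted p = 0.0544), control 1 (0.0795), control 2 (0.0946) or control 3 (0.0808), and over all settings its adjusted p ran from 0.00242 to 0.0946.

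Of 10 genes known to follow the clock in many tissues, 9 were tested. Of these 1 rose, against 5.14% of all genes tested, and none fell (2 lower at an unadjusted p under 0.05). The median log2 change was 0.10. Por, the reductase that supplies electrons to cytochrome P450 enzymes, had 501, 394 and 314 FPKM in K10-spastin 1 to 3, against 194, 174 and 182 FPKM in controls 1 to 3. Each K10-spastin library lay above each control, with a log2 change of 1.11 ± 0.18 (limma adjusted p = 0.0154), and Por was not called without control 2 (0.0674) or control 3 (0.0705). The cell cycle inhibitor Cdkn1a averaged 617 ± 161 FPKM in K10-spastin and 564 ± 70.6 FPKM in control, and the glycerol channel Aqp3 715 ± 229 FPKM and 532 ± 8.13 FPKM (SD, n = 3 each; limma adjusted p = 0.751 and 0.321).

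**Figure D2:**
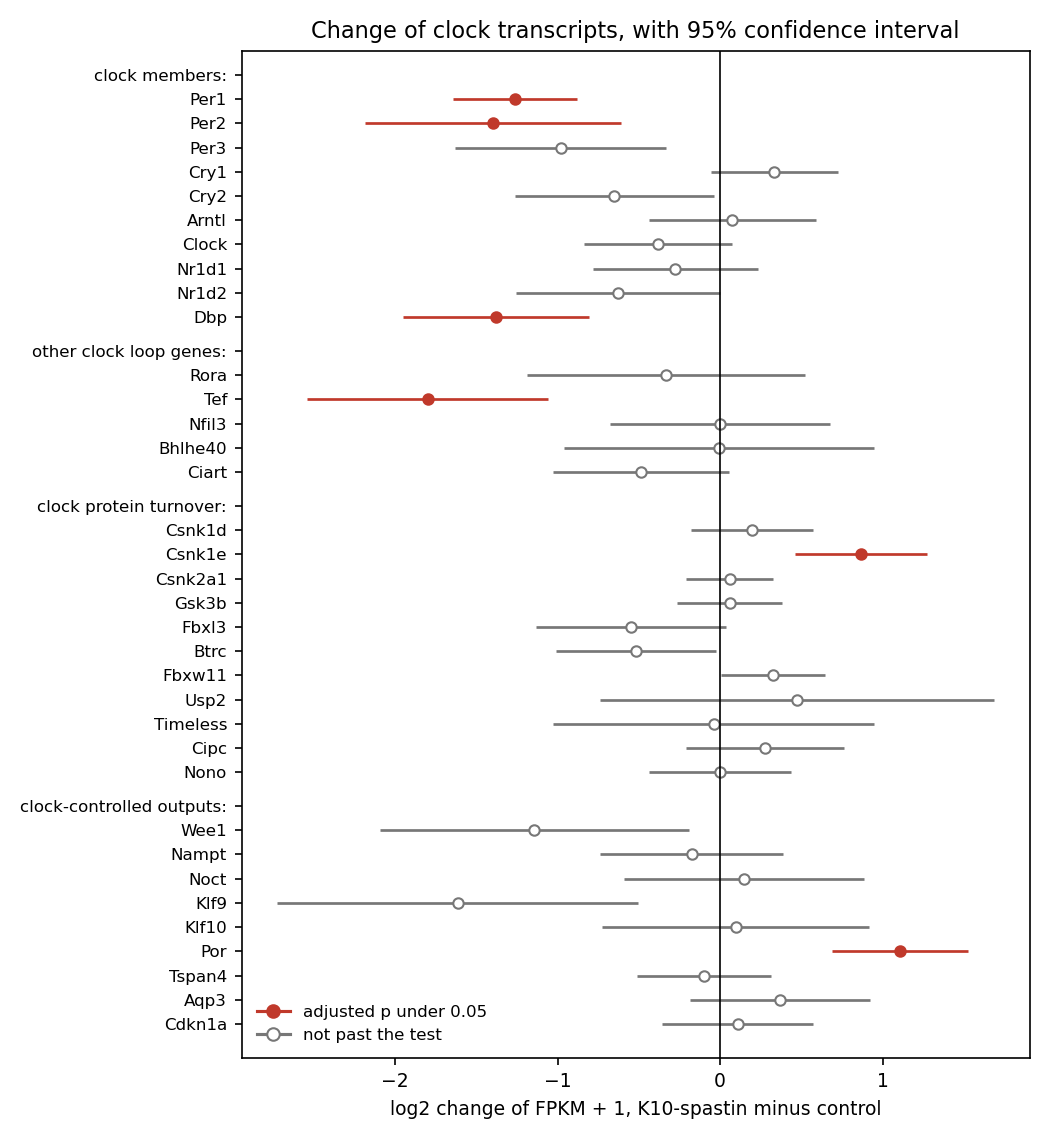
Log2 change of FPKM + 1 (K10-spastin minus control, x axis) with 95% confidence interval for each tested gene of the clock lists; filled red points passed limma at an adjusted p under 0.05 and open grey points did not. Per1, Per2, Dbp and Tef lie below 0, Csnk1e and Por above it.

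Ratios within a library do not depend on how libraries were scaled and describe how unequally clock genes differed. The pairs were picked without a stated rule. The ratio of Per1 to Cry1 was 1.31, 1.53 and 2.28 in K10-spastin 1 to 3, against 4.61, 5.04 and 5.91 in controls 1 to 3. The ratio of Dbp to Arntl was 0.115, 0.484 and 0.398 in K10-spastin 1 to 3, against 1.17, 1.04 and 1.18 in controls 1 to 3. The ratio of Dbp to Nr1d1, both switched on by CLOCK and BMAL1, was 0.724, 1.19 and 1.01 in K10-spastin 1 to 3, against 2.54, 3.36 and 2.24 in controls 1 to 3. In these pairs, and in those of Per2, Per3 and Dbp with Cry1 and of Per1 with Arntl, each K10-spastin ratio lay below each control ratio (two-sided exact permutation p = 0.1 for each, 0.15 adjusted over the 12 ratios computed). With 3 libraries a group, 0.1 is the smallest two-sided p that the exact test can reach, so none of these differences could pass 0.05. Each of these pairs sets Per1, Per2, Per3 or Dbp, whose groups did not overlap, over Cry1, Arntl or Nr1d1, whose groups did. Their separation thus largely follows from the values above and is not separate evidence. The pairs with Cry1 also share its values.

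The ratios of Tef to Dbp and of Per1 to Per2 overlapped between the groups. Tef to Dbp was 4.26, 2.49 and 4.89 in K10-spastin 1 to 3, against 3.79, 4.26 and 3.74 in controls 1 to 3 (two-sided exact permutation p = 1 before and after adjustment). Per1 to Per2 was 44.6, 22.1 and 22.4 in K10-spastin 1 to 3, against 24.7, 16.4 and 13.7 in controls 1 to 3 (two-sided exact permutation p = 0.3, adjusted 0.36). Per1 to Dbp was 41.8, 20.6 and 22.0 in K10-spastin 1 to 3, against 14.1, 17.4 and 20.6 in controls 1 to 3, with the lowest K10-spastin ratio only just above the highest control (two-sided exact permutation p = 0.1, adjusted 0.15). Cry2 to Cry1 also overlapped (two-sided exact permutation p = 0.2, adjusted 0.267).

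**Figure D3:**
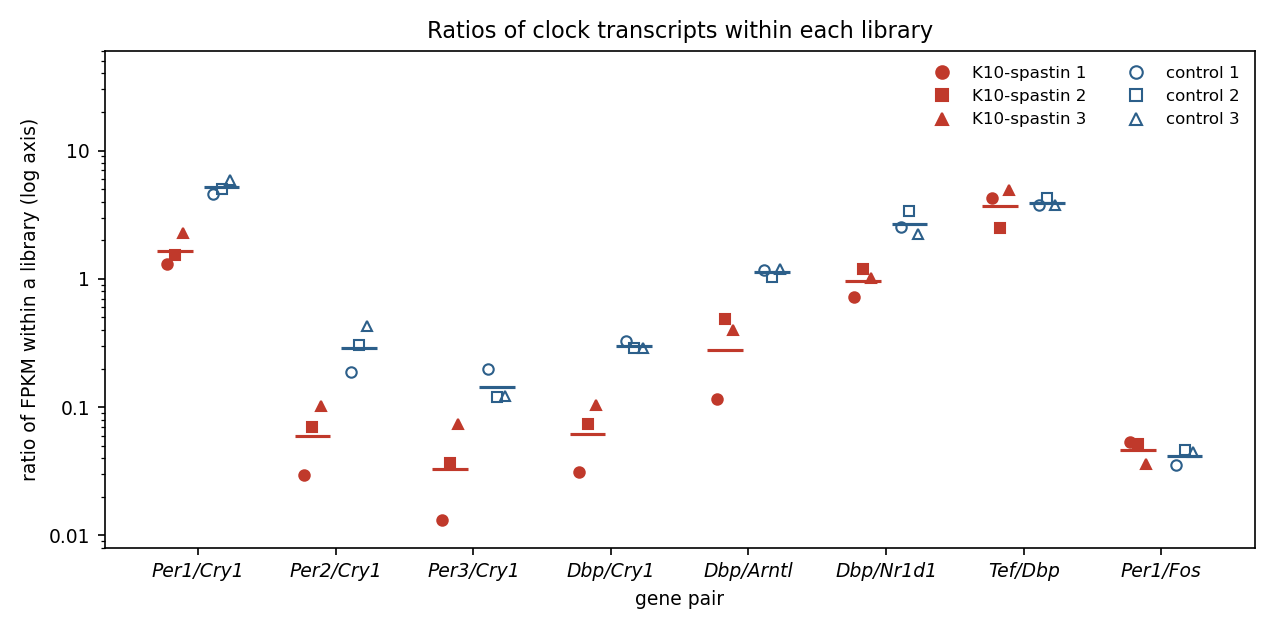
Ratio of the FPKM of named gene pairs within each library (log axis), for 3 K10-spastin libraries (filled) and 3 control libraries (open), with bars at the geometric mean. Ratios of Per1, Per2, Per3 and Dbp to Cry1 are lower in each K10-spastin library, while Tef to Dbp and Per1 to Fos overlap.

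Within a group the order of levels depends on the gene lengths used, so it is given with that limit. In controls, Per1 led at 96.7 ± 14.2 FPKM, followed by Cry2 at 26.1 ± 7.34 FPKM and Cry1 at 18.6 ± 0.864 FPKM (SD, n = 3), and Nr1d1 was the lowest at 2.11 ± 0.382 FPKM. In K10-spastin, Per1 led at 39.6 ± 5.15 FPKM, followed by Cry1 at 23.9 ± 4.05 FPKM and Cry2 at 16.1 ± 3.99 FPKM (SD, n = 3), and Per3 was the lowest at 0.920 ± 0.546 FPKM. Per1 lay above each other gene in every library, whereas Cry1 and Cry2 overlapped in both groups, as did each pair of neighbours from Clock down in K10-spastin and from Per3 down in controls. The FPKM steps fitted the mean length of a gene's annotated transcripts better than the longest one, which raises genes with short annotated fragments. Cry1 had a mean of 1029 bases against a longest transcript of 3026 bases, and on the longest transcript its mean would be 8.14 FPKM in K10-spastin and 6.33 FPKM in control. On that length Cry2 would be at 8.65 and 14.0 FPKM.

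Immediate-early genes share inducing signals with Per1. The 16 on the list were chosen with earlier results of these data known. Of them, 15 were tested, 7 fell, against 5.90% of all genes tested, 8 did not pass and none was called higher. Their median log2 change was -0.95, against -0.09 over all genes tested. At an unadjusted p under 0.05, 1 was higher, Ier3, at 44.2 ± 1.96 FPKM in K10-spastin and 21.6 ± 10.6 FPKM in control (SD, n = 3 each; limma adjusted p = 0.0698), named after its values were seen. Their summed level was 3040 to 4547 FPKM in K10-spastin and 6705 to 11578 FPKM in controls. Fos had 639, 796 and 1228 FPKM in K10-spastin 1 to 3, against 2329, 2106 and 2470 FPKM in controls 1 to 3 (limma adjusted p = 0.0161). Fosb averaged 60.9 ± 39.9 FPKM in K10-spastin and 668 ± 212 FPKM in control, and Jun 598 ± 100.2 FPKM and 1379 ± 533 FPKM (SD, n = 3 each; limma adjusted p = 0.00712 and 0.0558). The ratio of Per1 to Fos was 0.0530, 0.0515 and 0.0358 in K10-spastin 1 to 3, against 0.0351, 0.0466 and 0.0446 in controls 1 to 3, and overlapped between the groups (two-sided exact permutation p = 0.5, adjusted 0.545). The part of these genes' signals in the Per1 result was not tested.

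The glucocorticoid receptor also acts at Per1 and Per2. All 10 targets on the list were tested, 5 fell, against 5.90% of all genes tested, 5 did not pass and none was called higher. None was higher at an unadjusted limma p under 0.05 either. The median log2 change was -0.98, against -0.09 over all genes tested. This list too was chosen with earlier results of these data known. Their sum was 297 to 387 FPKM in K10-spastin and 581 to 637 FPKM in controls. Much of this difference came from the metallothionein genes Mt1 and Mt2, the latter named after its values were seen. Mt2 averaged 13.3 FPKM in K10-spastin and 71.6 FPKM in control (limma adjusted p = 0.0410). Zbtb16, a zinc finger repressor, had 0.633, 0.421 and 2.03 FPKM in K10-spastin 1 to 3, against 11.6, 12.0 and 13.0 FPKM in controls 1 to 3 (limma adjusted p = 0.00516). The metallothionein Mt1 averaged 64.3 ± 31.0 FPKM in K10-spastin and 201 ± 28.3 FPKM in control, and Errfi1, a feedback inhibitor of EGFR, 81.1 ± 9.89 FPKM and 106 ± 53.2 FPKM (SD, n = 3 each; limma adjusted p = 0.0337 and 0.744). Ddit4, a stress-induced inhibitor of mTOR named after its values were seen, had the opposite sign, at 114 ± 40.3 FPKM in K10-spastin and 64.5 ± 52.0 FPKM in control (SD, n = 3 each; limma adjusted p = 0.237). Their part in the changes of Per1 and Per2 was not tested.

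The sum over 6 fibroblast markers, far below that of the keratins, was 0.791 to 3.03 FPKM in K10-spastin and 6.44 to 42.3 FPKM in controls, with control 1 the lowest control. Of the 6, 4 were tested and 1 fell, against 5.90% of all genes tested. This was Dcn, a matrix proteoglycan, at 1.45 ± 0.942 FPKM in K10-spastin and 8.46 ± 5.58 FPKM in control (SD, n = 3 each; limma adjusted p = 0.0456). All 4 tested were lower in K10-spastin with no overlap between the groups, a separation found in that direction in 24.8% of genes tested. Of them, Col1a1, Col1a2 and Col3a1 reached the mean of 1 FPKM asked for by the test through the controls. Their K10-spastin means were 0.0419, 0.386 and 0.124 FPKM. The filter thus partly set the direction, and the share of all genes is no fair measure for these markers. Col1a1, a collagen gene named after its values were seen, averaged 0.0419 ± 0.0198 FPKM in K10-spastin and 7.49 ± 6.35 FPKM in control (SD, n = 3 each, limma adjusted p = 0.0599). The receptor Pdgfra, another marker on the list, was at or below 0.0476 FPKM in every library. Melanocyte markers summed to 1.89 to 23.1 FPKM in K10-spastin and 3.49 to 14.9 FPKM in controls, with the highest mean for Pmel, and hair placode markers to 21.5 to 55.9 FPKM and 6.40 to 31.1 FPKM, mostly Sox9. Of 5 placode markers 2 were tested, and Sox9 was not called (limma adjusted p = 0.110). Lhx2 was called lower, at 0.153 ± 0.138 FPKM in K10-spastin and 3.40 ± 2.92 FPKM in control (SD, n = 3 each, limma adjusted p = 0.0450). Lhx2 too reached the mean of 1 FPKM through the controls, so the filter favoured a fall over a rise. The part of these cell types in the clock results was not tested.

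**Figure D4:**
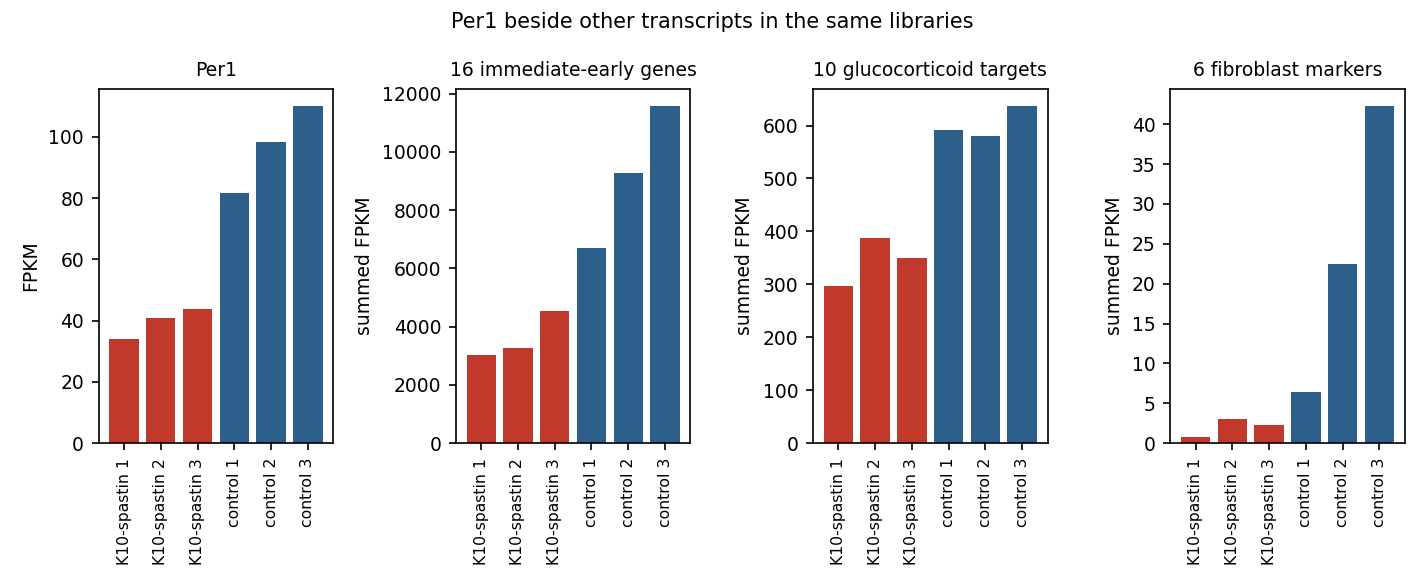
FPKM of Per1 and summed FPKM of the immediate-early, glucocorticoid-target and fibroblast lists (bars from 0), for K10-spastin 1 to 3 and controls 1 to 3. The lists were chosen with earlier results of these data known. Sums are led by abundant genes, and Mt1 and Mt2 supply much of the difference in the glucocorticoid panel. All 4 panels are lower in each K10-spastin library; control 1 has the lowest control bar for Per1, the immediate-early genes and the fibroblast markers.

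The genes with profiles most like those of the called clock genes were found by the root-mean-square (RMS) difference of centred log2(FPKM + 1) values over the 6 libraries, among 10436 named genes. Nearest to Per1 were Tbc1d8 (RMS difference 0.0767), Pfkm, the muscle phosphofructokinase (0.103), and Ermard (0.115). Nearest to Per2 were Sinhcaf (0.109), Csrnp2 (0.119) and Shisa7 (0.152). Nearest to Dbp were Sod1, the cytosolic superoxide dismutase (0.0555), Pygl, a glycogen phosphorylase (0.0750), and Bckdha, a subunit of the branched-chain keto acid dehydrogenase (0.0912). Sod1 had 14.3, 26.2 and 27.7 FPKM in K10-spastin 1 to 3, against 58.6, 58.1 and 55.9 FPKM in controls 1 to 3. This is a description over 6 libraries that fall into 2 groups, so any gene with a like difference between the groups comes close. Adding 1 FPKM shrinks the differences of low genes such as Per2, Dbp and Tbc1d8. A near profile therefore need not mean a like fold change.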

How the data were processed

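RNA of sorted cells was sequenced in 3 K10-spastin and 3 control libraries. The authors deposited 1 table of FPKM. Per the submitters' processing notes they used CASAVA and TopHat2 (no version). Strandedness, the counter, the annotation and the genome build were not given in the sources used here. Symbols matched 34490 of 35275 identifiers. Depth was read from the step of low values (up to 20 fragments) in 14953 genes with 1 transcript in GENCODE M21, where 90.6% to 91.6% came out whole within 0.05. In genes with several transcripts, 58.5% to 59.1% came out whole with the mean transcript length, 18.8% to 21.2% with the longest and 11.9% to 12.9% with merged exons. Fragment numbers given for clock genes are approximate and cover counting error only.

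Genes reaching a mean of 1 FPKM were tested on log2(FPKM + 1) with limma 3.58.1 in R 4.3.3 (eBayes with trend, no covariate, two-sided, Benjamini-Hochberg over all genes), which was tested on simulated data. No count test was run, since FPKM are not counts. Ratios were tested by exact permutation. Other scripts used Python 3.11.15, pandas 2.3.3, numpy 2.4.6 and matplotlib 3.10.9. The clock genes and all lists were chosen with earlier results of these data known. Named from other clock lists were genes past the test and the 2 with the highest mean, and from the 2 signal lists those with the 2 smallest p and the 2 highest means. The rule for cell marker lists was the highest gene, and other markers, such as those past the test, were named after their values were seen. Flg of the granular list was not matched. The loop list leaves out 1 gene, which is not reported here. Alternatives were other pseudocounts, filters, scalings and variance models, the replicate block, and libraries left out.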

Additional observations from a re-analysis of the deposited data

How the results depend on the processing

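Counts depended on the filter, the weights and the number of libraries. In place of 569 higher and 653 lower genes there were 319 and 348 with no filter and 1535 and 1771 with array weights, and 414 lower with a filter at 5 FPKM. The clock genes called lower, 3 at first, numbered 1 with no filter, 1 of the 4 still tested at 5 FPKM, and 6 with array weights, which added Per3, Clock and Nr1d2. With 1 library left out they numbered 1 to 4, against 113 to 691 higher and 32 to 701 lower genes overall. Per1 was among them each time, and each such fit had fewer libraries. No clock gene was called higher by limma under any of the 17 other settings. Pseudocounts of 0.1 and 0.5, both scalings, and limma without trend or with robust variances kept Per1, Per2 and Dbp. Median-of-ratios scaling gave 795 higher and 655 lower genes, and quantile normalization 607 and 888. The first moved the median log2 change of all genes from -0.09 to 0.04 and that of the clock genes from -0.64 to -0.52. The log2 change of Arntl turned negative with array weights (-0.027) and without K10-spastin 1 and control 1 together (-0.10), and ran between -0.10 and 0.23 with single libraries left out, negative only without K10-spastin 1; the cause was not tested. No other clock gene changed sign. With the replicate number as a block, 274 genes were higher and 218 lower, and Per1 and Per2 were called among the clock genes, but Dbp (limma adjusted p = 0.0524) was not, nor was Csnk1e (0.0516). Same-numbered libraries did not deviate together (correlations of -0.13, -0.38 and -0.05 for numbers 1 to 3). So few libraries cannot show whether the numbers pair the samples, and the labels do not say what a number marks. Near or below about 1 FPKM, as for Per3 and Nr1d2 in K10-spastin, 3 fragments were worth 0.0319 to 0.0965 FPKM.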

Other observations

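The libraries of a group differed in ways that some clock genes shared and others did not. K10-spastin 1, the library with the most Spast, had the lowest K10-spastin value of 5 clock genes, Per1, Per2, Per3, Nr1d1 and Dbp, and the highest of Arntl and Nr1d2. These values are unscaled FPKM, which ran low in K10-spastin 1 for genes in general. Its median-of-ratios scaling factor was 0.811, against 1.01 to 1.08 in the other libraries. Among controls, control 1 had the lowest value of 6 clock genes, Per1, Per2, Cry1, Cry2, Clock and Nr1d2, and the highest of Per3 and Dbp. Per2 and Per3 thus ran opposite ways in the controls, at 3.31 and 3.54 FPKM in control 1, 5.97 and 2.35 FPKM in control 2, and 8.05 and 2.28 FPKM in control 3. With 3 libraries per group, none of this was tested.

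Among the clock-controlled genes, 2 chosen after their values were seen had controls whose range was larger than the difference of the group means. Other genes of that list had this too. Klf9, a Krüppel-like factor induced by glucocorticoids, had 2.28, 1.504 and 1.64 FPKM in K10-spastin 1 to 3, against 2.88, 9.69 and 14.1 FPKM in controls 1 to 3 (limma adjusted p = 0.0672), and its groups did not overlap. Wee1, the kinase that holds cells before mitosis, had 8.94, 13.0 and 9.74 FPKM in K10-spastin 1 to 3, against 12.0, 29.2 and 39.96 FPKM in controls 1 to 3 (limma adjusted p = 0.104).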
